A study of Mus musculus with 12 samples.

Results

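The enzymes that make citrate, carry it to 2-oxoglutarate or divert it to itaconate were followed through the RNA of mouse bone marrow-derived dendritic cells (DCs). The 7 genes were taken by symbol from the count table: *Acod1*, *Cs*, *Idh3a*, *Idh3b*, *Idh3g*, *Idh1* and *Idh2*. They were 7 of 55471 genes in the table, and all 7 were among the 18228 genes with enough counts to be tested. The DCs were grown from the marrow of female C57BL/6 mice with GM-CSF, infected with a retrovirus that carries a short hairpin RNA and a human CD8 reporter, and sorted on that reporter. All 12 libraries therefore come from transduced, sorted cells. In 3 libraries the hairpin was against firefly luciferase and the cells were unstimulated (unstimulated shControl). In 3 it was against *Ppargc1b*, the gene of the co-activator PGC-1β, without stimulation (unstimulated sh*Ppargc1b*). The other 6 libraries were the same cells after 6 h with interferon-β (IFN-β), 3 with each hairpin. The labels give no replicate numbers and do not say whether libraries of a group come from separate cultures or mice, so p-values measure the spread between libraries, which may be technical. The question was whether the itaconate branch moves against the steps from citrate to 2-oxoglutarate when *Ppargc1b* is knocked down or IFN-β is added.

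Citrate synthase (*Cs*) joins acetyl-CoA and oxaloacetate to citrate in the mitochondrial matrix, and citrate is turned into isocitrate by way of cis-aconitate. Isocitrate is oxidised to 2-oxoglutarate by the NAD-linked enzyme built from IDH3A, IDH3B and IDH3G, or by the NADP-linked enzymes IDH2 in mitochondria and IDH1 in the cytosol and peroxisomes. ACOD1, made by myeloid cells after inflammatory stimuli, draws cis-aconitate out of the cycle and decarboxylates it to itaconate, which inhibits succinate dehydrogenase.

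The library totals ran from 49919648 to 77726101 counts. Values below are CPM, counts relative to the library total after TMM scaling (trimmed mean of M-values), and each member had at least 704 counts in each library. *Ppargc1b* was at 33.3 to 36.7 CPM in unstimulated shControl and 18.6 to 20.3 CPM in unstimulated sh*Ppargc1b* cells. With IFN-β it was at 23.6 to 31.4 and 15.5 to 20.9 CPM. The hairpin changed its target by -0.83 ± 0.10 on the log2 scale without IFN-β and by -0.57 ± 0.11 with it. Dendritic markers were present, 7 of 8 above 1 CPM in each group (*Cd209a* was below), but so were all 8 macrophage markers. GM-CSF cultures can hold both kinds of cell, and which cells these markers came from was not tested. The summed macrophage markers were at 1511 to 1653 CPM in unstimulated shControl, 1274 to 1327 in unstimulated sh*Ppargc1b*, 2228 to 2413 in IFN-β-treated shControl and 1826 to 1995 in IFN-β-treated sh*Ppargc1b* cells. The summed dendritic markers, in the same order, were at 1639 to 1882, 1986 to 2140, 1789 to 2084 and 2198 to 2325 CPM. Of the 7 dendritic markers tested, 4 (*Flt3*, *Zbtb46*, *Itgax* and *Ccr7*) were higher with knockdown without IFN-β. With IFN-β these and *Dpp4* were higher with knockdown, and none was lower in either comparison. Of all genes tested, 12.4% were higher and 11.1% lower with knockdown without IFN-β, and 11.5% higher and 12.7% lower with it. Of the 8 macrophage markers, 3 were lower with knockdown without IFN-β and 4 with it, and *Mrc1* had the widest shift (mean 307 to 107 CPM without and 257 to 96.1 CPM with IFN-β), while *Cd68* was at 458 and 456 CPM in the unstimulated groups and *Adgre1* at 153 and 162 CPM. Neutrophil markers summed to 41.0 to 95.9, 90.0 to 158, 39.1 to 101 and 87.3 to 164 CPM in that order of groups, with *Ly6g*, *Mpo* and *Elane* below 1 CPM in each. Mast cell or basophil markers summed to 8.71 to 16.6, 22.1 to 25.7, 7.64 to 14.6 and 12.8 to 21.1 CPM. *S100a8*, *Gata2* and *Kit* of these lists were higher with knockdown under both treatments. Lymphocyte and erythroid markers were all below 1 CPM on average. In such bulk RNA, fewer cells of a type and less RNA per cell cannot be told apart, and the part of these marker shifts in the results below was not tested.

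The sequences just upstream of the members are shown because *Acod1* and the isocitrate genes moved in opposite directions, and because *Idh3g* and *Idh1* each share their upstream region with a neighbouring gene. They are RefSeq promoters of GRCm38.p6, from 250 bases before to 50 after the start site, read 5′ to 3′. An entry was found for 6 of 7 members, and *Idh3a* had none. The *Idh2* entry and a further *Idh1* entry are described but not printed. Capitals mark matches to the motifs named after the sequences.
Acod1, chr14:103046762-103047061, forward strand: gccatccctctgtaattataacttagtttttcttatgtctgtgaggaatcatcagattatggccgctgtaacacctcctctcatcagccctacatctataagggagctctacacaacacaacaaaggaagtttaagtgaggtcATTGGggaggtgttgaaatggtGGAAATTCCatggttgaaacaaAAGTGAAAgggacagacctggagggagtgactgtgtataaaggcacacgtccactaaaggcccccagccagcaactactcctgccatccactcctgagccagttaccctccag
Cs, chr10:128337477-128337776, forward strand: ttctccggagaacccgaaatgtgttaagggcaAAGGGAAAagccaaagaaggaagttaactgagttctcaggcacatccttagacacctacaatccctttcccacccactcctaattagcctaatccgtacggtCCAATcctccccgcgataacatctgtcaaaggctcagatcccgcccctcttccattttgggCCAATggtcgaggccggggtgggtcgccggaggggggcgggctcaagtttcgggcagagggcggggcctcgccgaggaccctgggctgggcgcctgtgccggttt
Idh3b, chr2:130284402-130284701, reverse strand: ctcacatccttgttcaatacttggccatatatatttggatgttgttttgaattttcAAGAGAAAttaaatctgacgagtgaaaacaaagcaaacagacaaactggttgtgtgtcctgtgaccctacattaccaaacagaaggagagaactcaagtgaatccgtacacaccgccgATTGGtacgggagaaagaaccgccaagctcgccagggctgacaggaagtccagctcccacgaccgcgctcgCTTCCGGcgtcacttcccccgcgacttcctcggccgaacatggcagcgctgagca
Idh3g, chrX:73786848-73787147, reverse strand: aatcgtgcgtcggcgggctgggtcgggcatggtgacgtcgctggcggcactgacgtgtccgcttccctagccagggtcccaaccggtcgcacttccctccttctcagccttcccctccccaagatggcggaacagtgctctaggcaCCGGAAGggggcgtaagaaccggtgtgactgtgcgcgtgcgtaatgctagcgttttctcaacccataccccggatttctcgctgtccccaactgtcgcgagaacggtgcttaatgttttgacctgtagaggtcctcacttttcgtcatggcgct
Idh1, chr1:65186430-65186729, reverse strand: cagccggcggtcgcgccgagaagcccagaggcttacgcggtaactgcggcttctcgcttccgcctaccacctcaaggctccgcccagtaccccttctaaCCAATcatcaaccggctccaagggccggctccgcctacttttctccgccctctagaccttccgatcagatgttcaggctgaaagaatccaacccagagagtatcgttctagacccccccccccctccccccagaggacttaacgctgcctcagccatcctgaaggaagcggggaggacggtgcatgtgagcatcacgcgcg
The motifs were chosen after the sequences had been seen, were searched on both strands, and are a description of the letters only. The *Acod1* promoter held the NF-κB sequence GGAAATTCC, found in 0.317% of 32851 mouse promoters, at -85 from the start site. It also held the interferon regulatory factor (IRF) sequence AANNGAAA, as AAGTGAAA, at -63, a motif of 23.9% of promoters. The capitals ATTGG at -107 are the reverse complement of CCAAT, which 37.4% of promoters contain. The full interferon-stimulated response element (ISRE), found in 3.44% of promoters, was not in this window. *Cs* held the IRF sequence as AAGGGAAA at -218 and CCAAT at -116 and -55. *Idh3b* held the IRF sequence as AAGAGAAA at -194 and the reverse complement of CCAAT at -76. At -5 it held CTTCCGG, the reverse complement of the ETS sequence CCGGAAG, found in 8.86% of promoters. *Idh3g* held that ETS sequence at -104, and *Idh1* held CCAAT at -151. The *Idh2* entry held CCAAT at -44, and the further *Idh1* entry held none of the motifs. The estrogen-related receptor sequence AAGGTCA (4.72% of promoters), the NRF1 motif (4.6%) and the E-box CACGTG (7.15%) were in none of the members' 7 promoter entries. The G and C content was 47.0% in the *Acod1* promoter, below the median of 52.7% over all promoters, and was 50.3% in *Idh3b*, 58.7% in *Cs*, 60.3% in *Idh3g* and 62.0% in the *Idh1* promoter shown. It was 63.7% in the further *Idh1* entry and 68.3% in the *Idh2* entry.

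Per kilobase of merged exons, the scale on which levels of different genes can be compared, *Idh1* had the highest level of the 7 in unstimulated shControl cells, at 221 ± 12.3 CPM per kb (SD, n = 3, as for all group means). *Acod1* followed at 147 ± 4.87 CPM per kb. *Cs* (32.4 ± 0.85), *Idh3b* (19.7 ± 1.14) and *Idh3g* (17.7 ± 0.73) formed the middle, and *Idh2* (8.46 ± 0.42) and *Idh3a* (6.79 ± 0.35) were lowest. After IFN-β the order turned at the top. *Acod1* reached 766 ± 46.5 CPM per kb in shControl cells against 126 ± 10.2 for *Idh1*, and it stood 37th of 18194 genes by this measure, compared with 207th without IFN-β. Per kb, *Idh3a* had the lowest level of the 7 in each of the 4 groups. That order depends on the exon lengths used, 5072 bases for *Idh3a* and 2588 for *Idh2*. By CPM, *Idh2* ranked below *Idh3a* in unstimulated shControl (6139th against 4733rd) and unstimulated sh*Ppargc1b* cells (5939th against 5799th). *Csl*, a citrate synthase-like gene, had at most 4 counts in a library.

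*Acod1* (ENSMUSG00000022126, chr14:103046977-103056573, forward strand, GENCODE coordinates on GRCm38 as for the other members) encodes the enzyme that makes itaconate. In unstimulated cells it was higher with the *Ppargc1b* hairpin than with the control hairpin. It was raised much further by IFN-β, and rose by a smaller factor with IFN-β in sh*Ppargc1b* than in shControl cells. Unstimulated shControl libraries had 389.7, 394 and 370.3 CPM, and unstimulated sh*Ppargc1b* libraries had 676, 659 and 647 CPM. The lowest sh*Ppargc1b* library was far above the highest shControl library. The log2 fold change was 0.78 ± 0.05 (SE), a rise of 71.7% (edgeR quasi-likelihood test with Benjamini-Hochberg adjustment over all genes, as for every adjusted p below, adjusted p = 5.8e-08). After IFN-β, shControl libraries had 1889, 2133 and 2004 CPM and sh*Ppargc1b* libraries had 2301, 2119 and 2127 CPM. Here the groups overlapped, since 1 shControl library lay above 2 of the sh*Ppargc1b* libraries. The log2 difference of 0.12 ± 0.05 did not pass the test (adjusted p = 0.0971). Its unadjusted 95% interval was 0.01 to 0.23, and it passed with library totals as the only scaling (adjusted p = 0.0422) and without the filter on low counts (adjusted p = 0.0313).

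IFN-β raised *Acod1* 5.22-fold in shControl cells (log2 2.38 ± 0.05, adjusted p = 7.77e-15). The rise in sh*Ppargc1b* cells was 3.30-fold (log2 1.72 ± 0.05, adjusted p = 2.88e-13). The difference between these responses, which is also the difference between the knockdown effects with and without IFN-β, was -0.66 ± 0.07 on the log2 scale (adjusted p = 7.44e-04). Of all genes tested, 0.730% passed for this interaction, 11 higher (0.0603%) and 122 lower (0.669%), and *Acod1* was the only member among them. With library totals as the only scaling, 17 were higher and 67 lower. The number of genes passing also ranged from 36 to 271 when single libraries were left out, and was 449 in DESeq2. The *Acod1* interaction was between -0.72 and -0.61 when each library was left out in turn. Among 6 interferon-induced genes used as markers, all of which IFN-β raised in both kinds of cell, the median interaction was -0.52. All 6 were lower at an unadjusted p under 0.05, and 1 of them, *Isg15*, passed (-0.62 ± 0.13, adjusted p = 0.0489). The shares of all genes above are for adjusted p, and none is given for the unadjusted threshold.

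**Figure D1:**
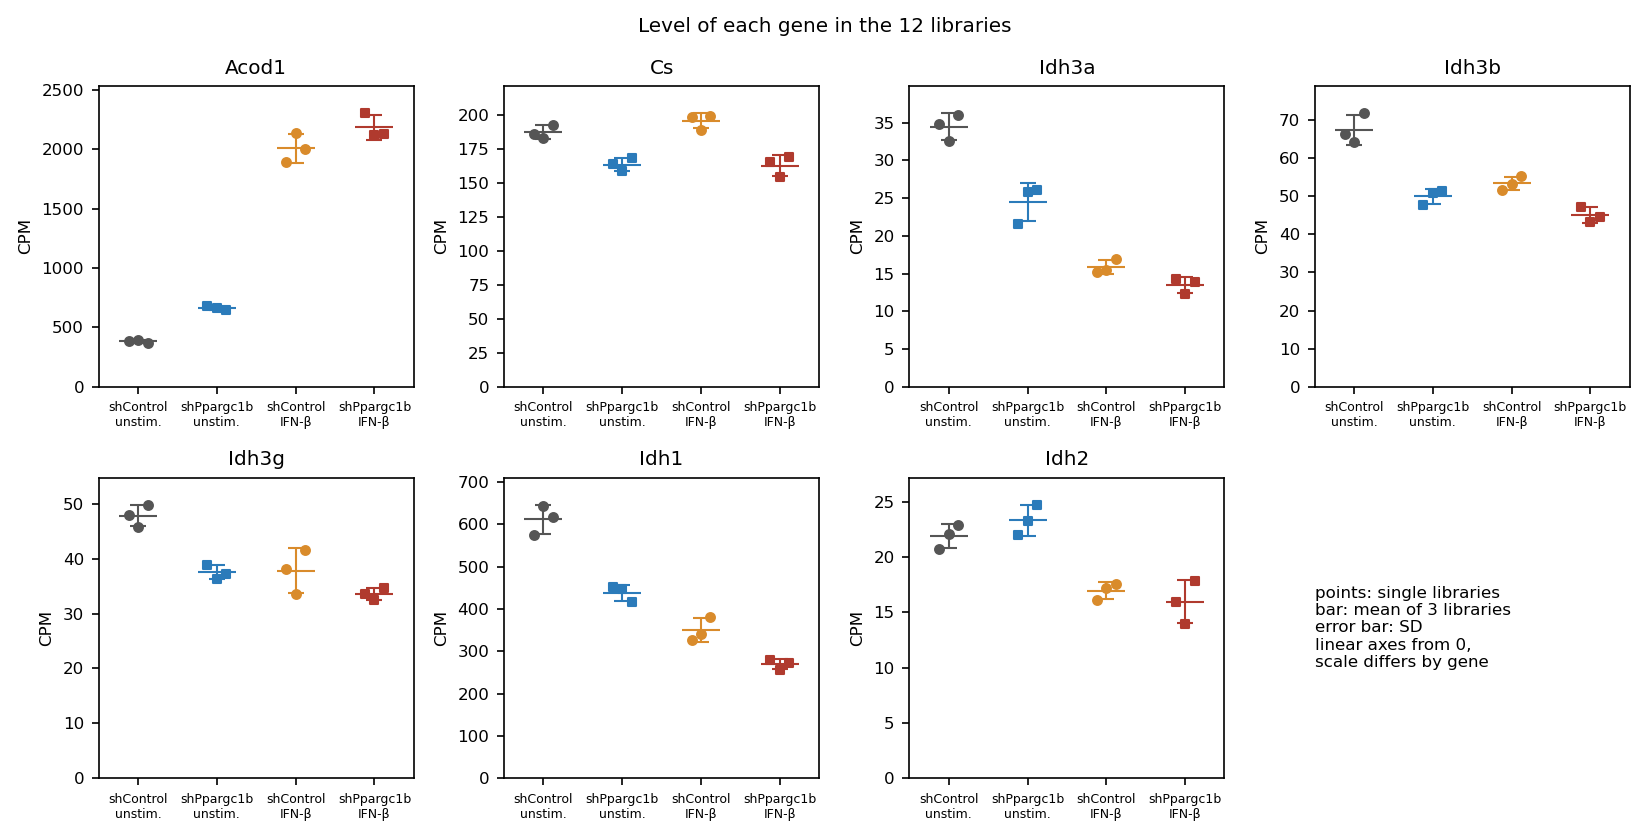
CPM of the 7 genes in each of the 12 libraries (points), with the mean and SD of each group of 3, on linear axes that start at 0 and differ in scale between genes. *Acod1* rises from 370.3 to 394 CPM in unstimulated shControl libraries to 1889 CPM or more in all IFN-β-treated libraries, while *Idh3a* and *Idh1* step down over the same 4 groups.

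*Cs* (ENSMUSG00000005683, chr10:128337734-128362479, forward strand) encodes citrate synthase, which brings acetyl units into the cycle. It was lower in sh*Ppargc1b* cells with and without IFN-β and showed no change with IFN-β itself that passed the test. Unstimulated shControl libraries had 185.9, 183.0 and 192.6 CPM, against 163.8, 158.3 and 167.8 CPM in sh*Ppargc1b*. With IFN-β the values were 198.0, 189.0 and 199.1 CPM in shControl and 165.1, 154.0 and 168.7 CPM in sh*Ppargc1b* cells. Each sh*Ppargc1b* library was thus below each shControl library, whichever treatment is compared. Knockdown changed *Cs* by -0.20 ± 0.04 in unstimulated cells (adjusted p = 0.00299) and by -0.27 ± 0.04 under IFN-β (adjusted p = 2.93e-04), both log2. The IFN-β effects were 0.06 (95% interval -0.03 to 0.15, adjusted p = 0.255) in shControl and -0.01 (-0.10 to 0.08, adjusted p = 0.926) in sh*Ppargc1b* cells.

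That statement on *Cs* depends on scaling. With library totals alone, the median of all tested genes moved for the IFN-β effect from -0.03 to -0.27 (shControl) and from -0.02 to -0.22 (sh*Ppargc1b*). *Cs* then stood at -0.18 (adjusted p = 0.00318) and -0.21 (adjusted p = 0.00112), no further below 0 than the median gene. The split of all genes also moved, from 4312 higher and 4481 lower to 2598 and 8294 in shControl cells, and from 3895 and 3865 to 2340 and 7551 in sh*Ppargc1b* cells. The directions given below for the other members with IFN-β were the same under both scalings, and *Idh3g* in sh*Ppargc1b* cells then passed (-0.36, adjusted p = 0.000331).

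The NAD-linked isocitrate dehydrogenase is assembled from a catalytic subunit (IDH3A) and the subunits IDH3B and IDH3G, the latter regulatory. Knockdown without IFN-β lowered all 3 genes, where 11.1% of all genes tested were lower, and IFN-β lowered all 3 in shControl cells, where 24.6% were lower. Of the 3, *Idh3a* fell the furthest with IFN-β. *Idh3a* (ENSMUSG00000032279, chr9:54586334-54604661, forward strand) was at 34.9, 32.5 and 36.0 CPM in unstimulated shControl and at 21.5, 25.8 and 26.1 CPM in unstimulated sh*Ppargc1b* libraries. After IFN-β the values were 15.2, 15.5 and 17.0 CPM in shControl and 14.3, 12.3 and 13.8 CPM in sh*Ppargc1b* libraries. None of the 4 groups overlapped, and the order fell from unstimulated shControl to IFN-β-treated sh*Ppargc1b* cells. The knockdown effect without IFN-β was -0.49 ± 0.08 (adjusted p = 2.58e-04). With IFN-β it was -0.24 ± 0.08 and just missed the threshold (adjusted p = 0.0509). It passed without shControl IFN-β library 1 (adjusted p = 0.0496), without unstimulated sh*Ppargc1b* library 1 (0.0341), without sh*Ppargc1b* IFN-β library 1 (0.0378), and in DESeq2 (0.0298). IFN-β lowered *Idh3a* by 53.8% in shControl cells (log2 -1.12 ± 0.08, adjusted p = 1.31e-08). Its fall in sh*Ppargc1b* cells was 44.9% (log2 -0.86 ± 0.08, adjusted p = 4.49e-07).

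*Idh3b* (ENSMUSG00000027406, chr2:130279309-130284547, reverse strand) was at 66.2, 64.1 and 71.7 CPM in unstimulated shControl and 47.7, 50.9 and 51.3 CPM in unstimulated sh*Ppargc1b* libraries. IFN-β-treated libraries had 51.7, 53.1 and 55.2 CPM in shControl and 47.2, 43.2 and 44.6 CPM in sh*Ppargc1b* libraries. These 4 groups did not overlap either. Knockdown changed it by -0.43 ± 0.05 in unstimulated cells (adjusted p = 2.22e-05) and by -0.25 ± 0.05 under IFN-β (adjusted p = 0.00276), both log2. IFN-β lowered it in shControl cells (-0.34 ± 0.05, adjusted p = 6.12e-05) and in sh*Ppargc1b* cells (-0.15 ± 0.05, adjusted p = 0.0278). The last call was lost when any of 4 sh*Ppargc1b* libraries was left out: unstimulated library 2 (adjusted p = 0.092), unstimulated library 3 (0.0984), IFN-β library 2 (0.115) or IFN-β library 3 (0.0813). Of the 3422 exonic bases of *Idh3b*, 5 overlap *Nop56* on the other strand.

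*Idh3g* (ENSMUSG00000002010, chrX:73778963-73786897, reverse strand) was at 47.9, 45.8 and 49.8 CPM in unstimulated shControl and 38.9, 36.4 and 37.2 CPM in unstimulated sh*Ppargc1b* libraries. In IFN-β-treated cells it stood at 38.2, 33.6 and 41.7 CPM in shControl and 33.7, 32.5 and 34.6 CPM in sh*Ppargc1b* libraries. Only unstimulated shControl stood clear of the other 3 groups, and the IFN-β-treated shControl group was spread over both sh*Ppargc1b* groups. The knockdown effect was -0.35 ± 0.07 without IFN-β (adjusted p = 9.86e-04). With IFN-β it was -0.17 ± 0.07 (adjusted p = 0.075), and -0.27 without shControl IFN-β library 2, the lowest of its group (adjusted p = 0.00532). IFN-β lowered *Idh3g* in shControl cells (-0.34 ± 0.07, adjusted p = 4.88e-04). In sh*Ppargc1b* cells the change was -0.16 ± 0.07 (adjusted p = 0.0666), and it passed without shControl IFN-β library 2 (0.0296) or 3 (0.0444).

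The 3 subunit genes stood in other proportions after IFN-β. The ratio of *Idh3b* to *Idh3a*, in counts per kb, was 2.90 ± 0.07 in unstimulated shControl and 3.04 ± 0.21 in unstimulated sh*Ppargc1b* cells, and 4.99 ± 0.14 and 4.95 ± 0.21 with IFN-β. The ratio of *Idh3g* to *Idh3a* was 2.61 ± 0.04 and 2.91 ± 0.42 without and 4.47 ± 0.34 and 4.69 ± 0.27 with IFN-β. Every IFN-β-treated library was above every unstimulated library in both ratios. The hairpins overlapped within each treatment, except for *Idh3g* to *Idh3a* without IFN-β, where the groups met with almost no gap (highest shControl 2.65, lowest sh*Ppargc1b* 2.65). The ratio of *Idh3b* to *Idh3g* was 1.05 to 1.12 in the 4 group means, and all 4 groups overlapped. These ratios need no scaling between libraries. The ratios are given as values, with no test.

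**Figure D2:**
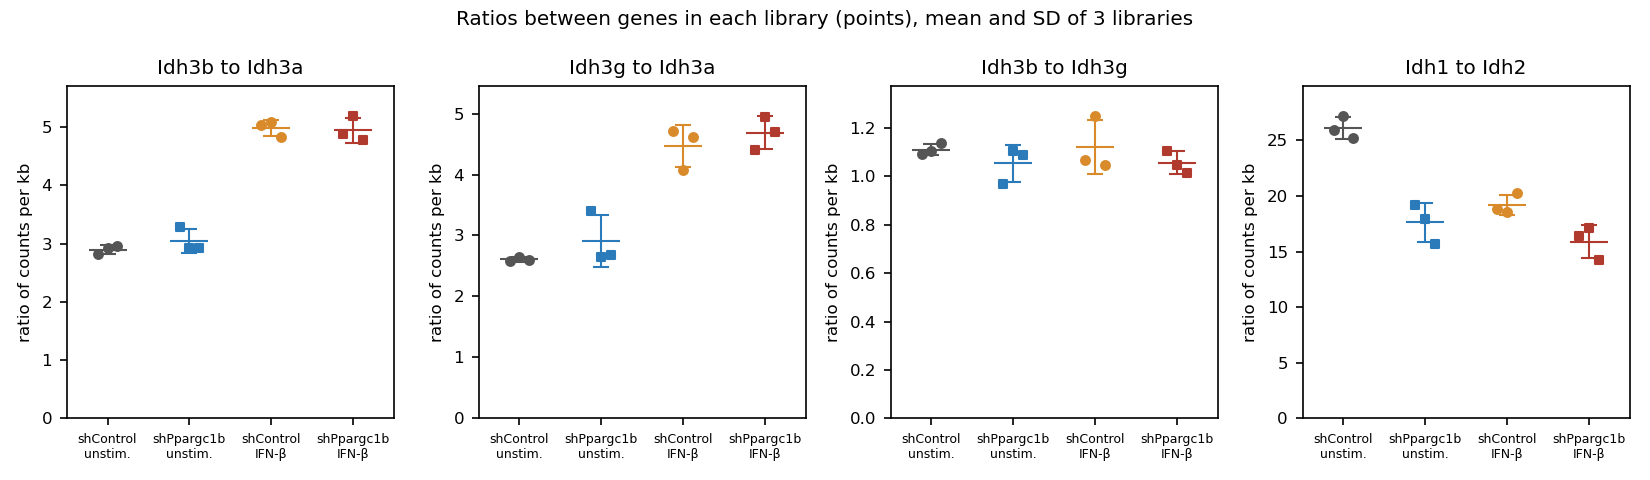
Ratios of counts per kb of merged exons in each of the 12 libraries (points), with the mean and SD of each group of 3, on axes from 0. *Idh3b* to *Idh3a* and *Idh3g* to *Idh3a* are higher in all IFN-β-treated libraries, *Idh3b* to *Idh3g* stays near 1, and *Idh1* to *Idh2* is highest in unstimulated shControl libraries.

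*Idh1* (ENSMUSG00000025950, chr1:65158616-65186500, reverse strand), the cytosolic and peroxisomal NADPH-producing enzyme, fell in all 4 comparisons. It was at 575, 643 and 617 CPM in unstimulated shControl and 452, 446 and 416 CPM in unstimulated sh*Ppargc1b* libraries. Libraries treated with IFN-β had 326, 341 and 381 CPM in shControl and 280.0, 256 and 272 CPM in sh*Ppargc1b* libraries. The 4 groups did not overlap. Knockdown lowered it by 28.4% in unstimulated cells (log2 -0.48 ± 0.06, adjusted p = 2.62e-05) and by 22.9% with IFN-β (log2 -0.38 ± 0.06, adjusted p = 2.73e-04). IFN-β lowered it by 42.9% in shControl cells (log2 -0.81 ± 0.06, adjusted p = 1.66e-08). The fall in sh*Ppargc1b* cells was 38.5% (log2 -0.70 ± 0.06, adjusted p = 1.21e-07).

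*Idh2* (ENSMUSG00000030541, chr7:80094846-80115392, reverse strand), its mitochondrial counterpart, was the member that knockdown did not detectably change. It was at 20.7, 22.1 and 22.9 CPM in unstimulated shControl and 22.0, 23.2 and 24.7 CPM in unstimulated sh*Ppargc1b* libraries. Treated libraries were at 16.2, 17.2 and 17.6 CPM in shControl and 16.0, 14.0 and 17.9 CPM in sh*Ppargc1b* libraries. Both pairs of hairpin groups overlapped, and all unstimulated libraries lay above all IFN-β-treated ones. The knockdown effects were 0.09 (95% interval -0.08 to 0.26, adjusted p = 0.463) and -0.09 (-0.27 to 0.08, adjusted p = 0.465). IFN-β changed *Idh2* by -0.37 ± 0.08 in shControl cells (adjusted p = 0.00138). The change in sh*Ppargc1b* cells was -0.55 ± 0.08 (adjusted p = 4.54e-05), both log2. The ratio of *Idh1* to *Idh2* per kb was 26.1 ± 0.99 in unstimulated shControl, 17.6 ± 1.77 in unstimulated sh*Ppargc1b*, 19.2 ± 0.92 in IFN-β-treated shControl and 15.9 ± 1.51 in IFN-β-treated sh*Ppargc1b* cells.

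Set against each other, *Acod1* and the other 6 genes moved apart with knockdown in unstimulated cells. There 5 of the 6 were lower, none was higher, and their median log2 change was -0.39, while 23.6% of all genes tested passed, 11.1% lower and 12.4% higher, and the median of all genes was -0.00. The groups did not overlap for those 5 genes, which was also so for 36.8% of all genes. At an unadjusted p under 0.05 as well, 0 of the 6 were higher in any of the 4 comparisons in edgeR, and none was called higher in DESeq2 or limma-voom. With IFN-β, 3 of the 6 were lower with knockdown (*Cs*, *Idh3b* and *Idh1*) and none was higher, against 24.2% of all genes passing, 12.7% lower and 11.5% higher, and their median was -0.24 against -0.01. *Acod1* did not pass in that comparison, and the groups did not overlap for 4 of the 6 genes and for 38.7% of all genes. In every comparison of 3 libraries against 3 with no overlap, the exact two-sided permutation p was 0.1, the smallest possible.

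With IFN-β in shControl cells, 5 of the 6 were lower and none was higher, against 48.2% of all genes passing, 24.6% lower and 23.7% higher, and *Acod1* was higher. In sh*Ppargc1b* cells 4 of the 6 were lower and none was higher, against 42.6% of all genes passing, 21.2% lower and 21.4% higher. The medians of the 6 were -0.35 in both kinds of cell, and the groups did not overlap for 5 of the 6 in each, as for 56.7% and 50.1% of all genes. The interaction passed for none of the 6 (edgeR; *Idh3a* at 0.26 ± 0.11, unadjusted p = 0.0409, and *Idh3b* at 0.18 ± 0.07, unadjusted p = 0.0262, were the only ones under 0.05 before adjustment, and none passed in DESeq2 or limma-voom). Averaged over both treatments, knockdown lowered 5 of the 6 and raised *Acod1*, where 35.1% of all genes passed, 17.7% lower and 17.4% higher. *Idh2* was at -0.00 ± 0.06 in that average, with a sign that changed with scaling and with the libraries used.

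**Figure D3:**
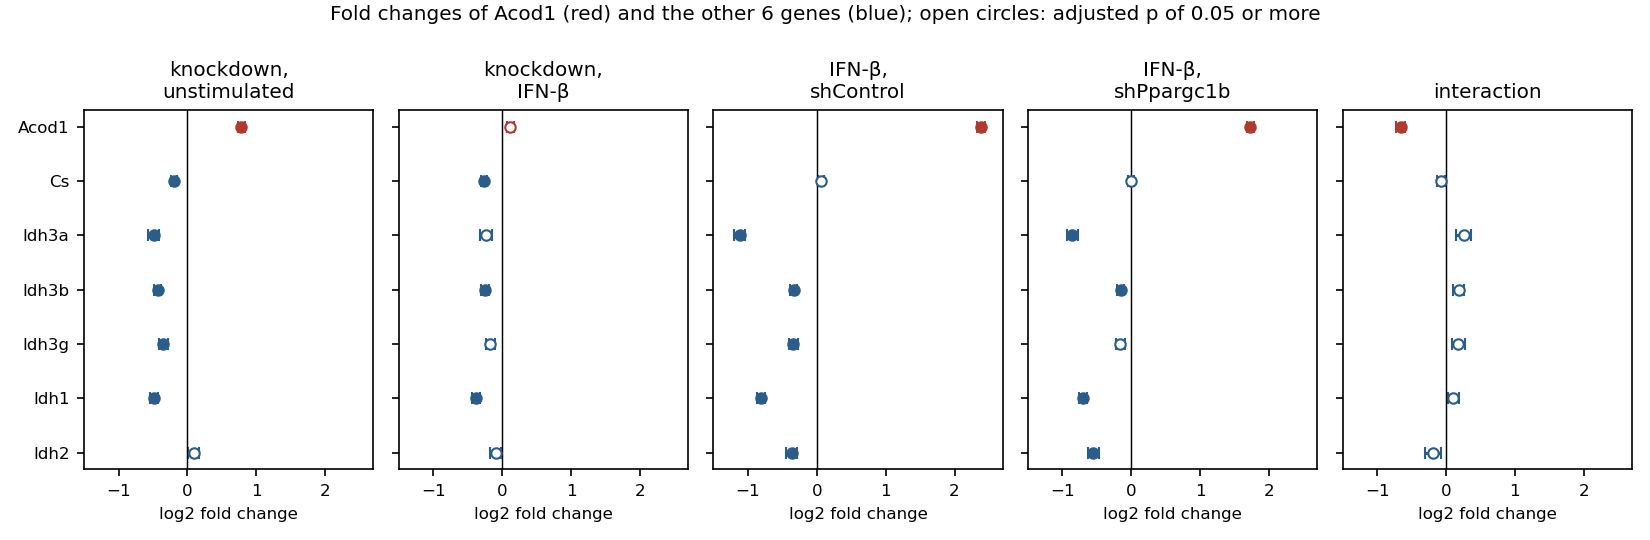
Log2 fold changes with SE of *Acod1* (red) and the other 6 genes (blue) in the knockdown comparisons, the IFN-β comparisons and the interaction. Filled circles passed the test. *Acod1* lies to the right of 0 in the 4 comparisons and to the left in the interaction, and no filled blue circle lies to the right of 0.

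The distance between the branches was also read within each library, as log2 CPM of *Acod1* minus the median log2 CPM of the other 6. It was 2.79, 2.86 and 2.63 in unstimulated shControl libraries and 3.97, 3.94 and 3.89 in unstimulated sh*Ppargc1b* libraries. With IFN-β it was 5.41, 5.66 and 5.38 in shControl and 5.85, 5.82 and 5.76 in sh*Ppargc1b* libraries. The 4 groups did not overlap. The step between hairpins was 1.17 without and 0.33 with IFN-β, and these values are given with no test because they combine the members. Against citrate synthase alone, the ratio of *Acod1* per kb was 4.53 ± 0.27, 8.92 ± 0.37, 22.7 ± 1.97 and 29.6 ± 1.59 in the same order of groups.

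**Figure D4:**
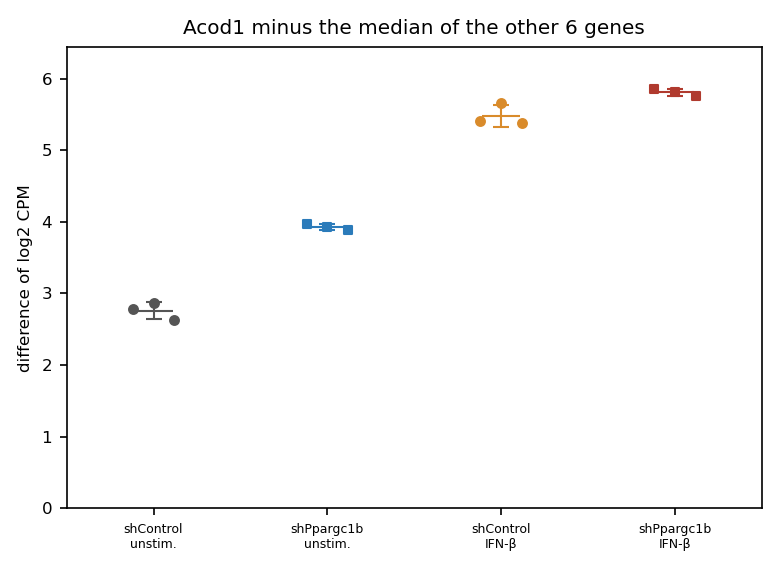
Log2 CPM of *Acod1* minus the median log2 CPM of the other 6 genes in each library (points), with the mean and SD of each group of 3, from 0. The groups step up from 2.63 to 2.86, to 3.89 to 3.97, to 5.38 to 5.66, to 5.76 to 5.85, with no overlap.

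*Aco1*, the cytosolic aconitase and iron regulatory protein, rose with knockdown (0.17 ± 0.06, adjusted p = 0.038, and under IFN-β 0.33 ± 0.06, adjusted p = 6.37e-04). Of the 13 other genes of the cycle, 9 fell and none rose with knockdown, both without and with IFN-β, with medians of -0.26 and -0.24. Over all genes tested, 11.1% were lower and 12.4% higher without IFN-β, and 12.7% lower and 11.5% higher with it. The 9 genes that fell included all 4 subunits of succinate dehydrogenase, the enzyme itaconate inhibits, such as *Sdha* (-0.53 ± 0.04 and -0.41 ± 0.04). With IFN-β, 7 of the 13 fell and *Sdhb* rose in both kinds of cell. Over all genes, 24.6% were lower and 23.7% higher in shControl, and 21.2% lower and 21.4% higher in sh*Ppargc1b* cells. With library totals alone, however, 12 of the 13 fell in shControl and 11 in sh*Ppargc1b* cells and none rose, *Sdhb* changing sign in shControl cells. The IFN-β counts of the lists below moved the same way under that scaling, toward more genes lower or fewer higher, or stayed as they were, while the knockdown counts differed by at most 1 gene in each direction.

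Citrate leaves mitochondria through the carrier SLC25A1 and is split to cytosolic acetyl-CoA by ATP citrate lyase (*Acly*). *Acly* fell with knockdown (-0.53 ± 0.05 and -0.42 ± 0.05) and with IFN-β, whereas *Slc25a1* passed with IFN-β alone, as a rise (0.29 ± 0.05 in shControl, 0.15 ± 0.05 in sh*Ppargc1b*) that passed in neither with library totals alone and changed sign in sh*Ppargc1b* cells. Of the 8 genes of citrate carriage and use, 2 rose (*Aco1*, *Me1*) and 2 fell (*Acly*, *Mdh1*) in each knockdown comparison. With IFN-β, 1 rose and 5 fell in shControl, and 1 rose and 4 fell in sh*Ppargc1b* cells, *Fasn* (fatty acid synthase) among them at -0.98 ± 0.12 and -0.95 ± 0.11. Of all genes tested, 23.6% passed with knockdown without IFN-β and 24.2% with it. With IFN-β itself, 48.2% of all genes passed in shControl and 42.6% in sh*Ppargc1b* cells. Upstream of *Cs*, 11 of 12 genes of pyruvate entry were tested. There 2 rose and 5 fell with knockdown without IFN-β and 1 rose and 6 fell with it, the pyruvate dehydrogenase subunits *Pdha1*, *Pdhb* and *Dlat* in both. With IFN-β 2 rose and 5 fell in each kind of cell, and *Pdk3*, a kinase that inactivates pyruvate dehydrogenase, rose by 1.68 ± 0.07 and 1.43 ± 0.07.

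Downstream of the isocitrate dehydrogenases, 12 genes of 2-oxoglutarate supply and carriage were mixed. With knockdown 2 rose and 5 fell without IFN-β, and 1 rose and 3 fell with it. *Glud1*, which makes 2-oxoglutarate from glutamate, fell in both (-0.41 ± 0.05 and -0.27 ± 0.05). With IFN-β 1 rose and 5 fell in shControl, and 1 rose and 4 fell in sh*Ppargc1b* cells. Both directions together, these IFN-β counts were near the shares of all genes passing, 48.2% and 42.6%. With knockdown 23.6% of all genes passed without IFN-β and 24.2% with it. Of the 6 other NADPH sources, 3 rose with knockdown in unstimulated cells (*Me1*, *G6pdx*, *Mthfd2*) and *Me2* fell, while with IFN-β *Me1* rose and *Me2* fell. IFN-β itself raised 2 and lowered 2 of them in shControl cells, and raised 1 and lowered 2 in sh*Ppargc1b* cells. *Sirt3*, the deacetylase of IDH2, fell with knockdown in unstimulated cells (-0.36 ± 0.09, adjusted p = 0.0106) and with IFN-β in both kinds of cell, whereas *Sirt5* passed in none of these comparisons. Itaconate is broken down through its CoA ester by CLYBL. *Clybl* fell with knockdown (-0.64 ± 0.08, adjusted p = 4.63e-05, and under IFN-β -0.81 ± 0.09, adjusted p = 7.25e-06), where *Acod1* was 0.78 and 0.12. It was the only 1 of 7 tested genes of itaconate breakdown, carriage and sensing to fall without IFN-β, and 3 of the 7 fell with it. IFN-β raised *Rab32*, a GTPase that itaconate delivery to bacterial vacuoles is known to use, in both kinds of cell, and lowered 2 of the 7 in shControl and 3 in sh*Ppargc1b* cells.

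Among 11 regulators known to raise *Acod1*, IFN-β raised 10 in shControl and 9 in sh*Ppargc1b* cells and lowered none. Of all genes tested, IFN-β raised 23.7% and lowered 24.6% in shControl, and raised 21.4% and lowered 21.2% in sh*Ppargc1b* cells. With knockdown 12.4% of all genes were higher and 11.1% lower without IFN-β, and 11.5% higher and 12.7% lower with it. These shares are the background for each list of this paragraph. *Irf1*, a transcription factor needed for *Acod1* induction by interferons, rose by 2.32 ± 0.04 and 2.06 ± 0.04. With knockdown in unstimulated cells 6 rose and *Tfeb* fell, while *Irf1* did not pass (-0.08 ± 0.04, adjusted p = 0.191). With IFN-β 3 rose and 3 fell with knockdown, and *Irf1* was among those that fell (-0.34 ± 0.04, adjusted p = 2.62e-05). None passed for the interaction, where *Irf1* was -0.26 ± 0.06 (adjusted p = 0.0673). At an unadjusted p under 0.05, 6 of the 11 were lower for the interaction. The share of all genes at that threshold is not given here, so the count has no background to be read against. Of 8 inflammatory genes that macrophages induce along with *Acod1*, 4 rose with knockdown in unstimulated cells (*Nos2*, *Il1b*, *Tnf*, *Ccl5*). With IFN-β 2 rose (*Tnf*, *Ccl5*) and *Cxcl10* fell. IFN-β raised 6 of them in shControl cells, and raised 7 and lowered *Il1b* in sh*Ppargc1b* cells. *Tnf* (-0.46 ± 0.10, adjusted p = 0.0408) and *Ccl5* (-0.85 ± 0.13, adjusted p = 0.0094) passed for the interaction, in the direction of *Acod1*, and 1 of the 8 did so with library totals alone. Itaconate derivatives are known to act through NRF2 and ATF3. Of 10 genes of these pathways, which include *Nfe2l2* (NRF2) and *Atf3* themselves and *Keap1*, the repressor of NRF2, 7 rose and none fell with knockdown in unstimulated cells, *Nqo1* by 0.69 ± 0.05 and *Slc7a11* by 0.60 ± 0.06. *Keap1*, *Hmox1* and *Srxn1* did not pass there. With IFN-β 5 rose with knockdown and those 3 fell. IFN-β itself raised 2 (*Keap1*, *Atf3*) and lowered 5 in shControl cells, and raised the same number and lowered 6 in sh*Ppargc1b* cells.

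The neighbours that share an upstream region with members did not follow them. *Ssr4*, a subunit of the translocon-associated complex, starts 131 bases from *Idh3g* on the opposite strand. It rose with knockdown (0.25 ± 0.03, adjusted p = 7.01e-05, and under IFN-β 0.28 ± 0.03, adjusted p = 3.18e-05), where *Idh3g* was -0.35 and -0.17, and with IFN-β it was at 0.02 and 0.05, neither of which passed. *Pikfyve*, a phosphoinositide kinase, starts 183 bases from *Idh1*, and its changes of -0.09 to 0.03 in the 4 comparisons did not pass, where *Idh1* fell in all 4. The strand setting of the counting is not given in the sources used here, but these pairs lie back to back and their exons do not overlap. *Cs* and *Idh2* overlap a small nucleolar RNA gene and a predicted locus on their own strands, without overlap of exons.

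The genes whose log2 CPM followed each member most closely over the 12 libraries were named by Pearson's r among 8306 protein-coding genes, as a description, since the libraries fall into 4 groups that set most of r. For *Acod1* they were *Slamf7* (r = 0.997), *Acsl1* (0.996) and *Clic4* (0.996). They encode a receptor of activated leukocytes, a long-chain acyl-CoA synthetase and a chloride channel protein. The genes most opposed to *Acod1* were *Ints6l* (r = -0.993), *Svil* (-0.992) and *Stk10* (-0.992). *Cs* was most like *Bach1* (0.983), *Hadha* (0.968) and *Klhl6* (0.968). *Idh3a* was most like *Top2b* (0.987), *Camk1d* (0.986) and *Ldb1* (0.985), *Idh3b* like *Slc25a3* (0.988), *Ap1s2* (0.987) and *Glud1* (0.984), and *Idh3g* like *Vav2* (0.971), *Crat* (0.967) and *Rttn* (0.960). *Idh1* was most like *Rcbtb2* (0.992), *Adk* (0.991) and *Vsir* (0.990), and *Idh2* like *Man2c1* (0.960), *Dele1* (0.958) and *Cbx5* (0.957). With the group means removed, 0 of the 3 genes named for a member were among its 3 nearest.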

How the data were processed

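RNA was measured in 12 libraries of sorted, transduced mouse bone marrow-derived DCs, 3 in each of 4 groups. Ribosomal RNA was depleted from total RNA and the pooled libraries were sequenced with paired-end reads. Reads were trimmed with Trim Galore 0.6.0 and aligned to mm10 with STAR, which also counted them per gene. The processing notes and the study's methods name different STAR versions, and the strand setting of the counting is not given in the sources used here. The deposited values are raw counts per gene, one column per library, and no value column lacked a library (0 unmapped).

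Genes were kept by filterByExpr (at least 10 counts, total of at least 15), which left 18228 of 55471 genes holding 99.96% of the counts. TMM factors (trimmed mean of M-values) scaled the libraries, and all 12 libraries entered 1 edgeR 4.0.16 quasi-likelihood fit (R 4.3.3) with a mean for each group. P-values were adjusted by Benjamini-Hochberg across the tested genes, and 0.05 was the threshold. The interaction was the knockdown effect with IFN-β minus that without. Log2 CPM used a prior count of 2. Levels per kb used merged exons of GENCODE M21, and promoters came from RefSeq. The fit was run on counts simulated from its own means and dispersions, as a check of the code. Such counts cannot show that the model holds for these libraries. Intervals are unadjusted.

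The members and gene lists were chosen with earlier results of these data known. The genes named were the members, the listed genes of each pathway, protein-coding genes starting within 1000 bases on the opposite strand, and the 3 genes most correlated with each member (for *Acod1* also the 3 least) at a mean log2 CPM of at least 3. Alternatives were other scalings and filters, DESeq2 1.42.0, limma-voom (limma 3.58.1), the compared groups alone, a block for runs of library codes, and leaving out each library. Replicates were numbered in accession order, which names libraries only. Some listed genes are not reported here by name.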

Additional observations from a re-analysis of the deposited data

Results flagged for a closer look

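*Acod1* was flagged because its response to IFN-β differed between shControl and sh*Ppargc1b* cells by the test of the difference itself. The interaction was -0.66 ± 0.07 on the log2 scale (edgeR, adjusted p = 7.44e-04). No group of 3 libraries was examined for single outlying libraries, which needs at least 4.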

How the results depend on the processing

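Of 826 alternatives over 42 results of the 7 members, 789 kept the direction and the side of the threshold, 19 passed where the reported fit did not, 4 no longer passed and 14 changed sign. The sign changes lay in results whose reported value was near 0. *Cs* with IFN-β in shControl cells went from 0.06 to -0.18 with library totals alone. It then passed (adjusted p = 0.00318), but is counted with the sign changes and not with the 19. In sh*Ppargc1b* cells *Cs* went to 0.00301 with RLE size factors and 0.00295 in DESeq2, and lay between -0.0309 and 0.0366 when each library was left out. The mean knockdown effect on *Idh2* went to 0.00486 with library totals alone, 0.0154 without a filter and 0.00355 with a CPM of at least 1 in 3 libraries, and lay between -0.0513 and 0.0385 when each library was left out. The cause of these changes was not tested.

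*Acod1* with knockdown under IFN-β passed at 0.14 with library totals alone and at 0.13 without a filter, with adjusted p from 0.0313 to 0.426 over its alternatives. The number of genes passing for the interaction was 133, and it was 84 with library totals alone, 525 without a filter (103 higher, 422 lower), 449 in DESeq2 (84 higher, 365 lower), and 36 to 271 when each library was left out. The fewest were left without unstimulated shControl library 3 and the most without sh*Ppargc1b* IFN-β library 2. With the mean of the 6 genes in place of their median, the step of *Acod1* over them was 2.87 in place of 2.72 for IFN-β in shControl cells, 2.13 in place of 1.88 in sh*Ppargc1b* cells and -0.74 in place of -0.84 for the interaction.

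The labels carry no replicate numbers, but their library codes form 3 runs of 4 consecutive codes with 1 library of each group, and nothing says that a run shares a culture or a day. Blocking on these runs gave 425 genes for the interaction (86 higher, 339 lower) and 5 of the 6 genes lower with knockdown under IFN-β, with *Idh3a* (adjusted p = 0.0285) and *Idh3g* (0.0235) then passing, as did *Idh3g* with IFN-β in sh*Ppargc1b* cells (0.0193). Deviations from the group means correlated at 0.09 on average within such runs (0.03 to 0.15) and at -0.04 between them. Fits on the compared groups alone are the same as the reported fit for the interaction and the mean knockdown effect, so they gave no further value. Each group had 3 libraries, and the lowest count of a member in a library was 704, in *Idh3a*, so both the number of libraries and the counts limit the precision of the low members.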
